A study of Mus musculus with 27 samples.

Results

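Joins between the immunoglobulin heavy chain (Igh) bait on chromosome 12 and another chromosome were described where over 20 read bases between the bait alignment and the prey alignment matched neither. The bait is the fixed break end from which sequencing starts, the prey is the DNA joined to it, and the unaligned bases are called the gap. Of 193201 joins in 27 libraries, 39296 were interchromosomal and 1864 of these lay in 5 recurrent 10 kb windows that were left out, which in mm9 are chr14:32420000-32429999, chr14:115440000-115449999, chr8:125950000-125959999, chr8:129110000-129119999 and chr1:20660000-20669999. The remaining 37432 held 7485 joins with a gap over 20 bases, which are 20.0% of them. The rule used the prey chromosome, these windows and the gap length, so gap length is given as a description.

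The cells were CH12F3, a mouse B-cell line, stimulated for 72 h with IL-4, αCD40 and TGFβ to undergo class switch recombination. Every group had the same stimulation and the same bait, and none was unstimulated. WT, the parental line, was 1 clone. The mutants Ligase4-/-, PAXX-/-, XLF-/- and XLF-/-PAXX-/- had 2 clones apiece, and each clone gave 3 libraries. Both double-mutant clones came from one of the PAXX-/- clones, and the second Ligase4-/- clone came from another laboratory. The labels call the libraries of a clone biological replicates and do not say whether they were separate cultures, so p-values over libraries measure only the spread between these samples, which may be technical. A library held 3610 to 14524 joins in all, 577 to 3150 interchromosomal joins and 34 to 1235 members. Read names showed 8 sequencing runs, and PAXX-/- and XLF-/- were the only genotypes that shared runs.

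In class switch recombination, activation-induced deaminase starts breaks in the repetitive switch regions in front of the heavy chain constant genes, and end joining connects the Sμ break to a downstream switch region such as Sα. A break end can instead join a break on another chromosome, which gives a translocation. XLF and PAXX are accessory factors of classical end joining, and DNA ligase 4 seals its ends. Sμ is made of short repeats rich in GAGCT and related G-rich words, and copied or captured DNA at a join can leave bases that belong to neither partner. In linear amplification-mediated translocation sequencing (LAM-HTGTS), a bridge adapter is ligated to the far end of each amplified strand, and Illumina adapters are added by PCR.

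The sequences show what the gaps held. The bait stretch is the consensus of the aligned bait bases of all reads, on the minus strand of chr12:114664781-114664911 (mm9):
bait: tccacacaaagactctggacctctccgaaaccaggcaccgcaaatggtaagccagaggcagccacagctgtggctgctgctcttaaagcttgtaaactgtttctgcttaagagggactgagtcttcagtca
A pair of consensus words recurred in the gaps. The 19-base word is the most frequent sequence that follows Sα preys at read ends, where 51.05% of 83209 stretches held it whole, and it overlaps the sequence of the LAM-HTGTS bridge adapter. The 51-base word was extended from the most frequent 16-base word of the gaps as long as at least 200 gaps held each next word, and it lies in an Illumina paired-end adapter. Both are shown in capitals:
19-base word: ACCACGCGTGCCCTATAGT
51-base word: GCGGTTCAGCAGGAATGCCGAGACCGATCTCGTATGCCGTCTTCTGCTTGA

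Gaps were sorted by shared 16-base words into 4 classes. The 2 gaps of each class found in most libraries, then in most joins, then the longest, are shown with up to 15 bait bases before and 25 prey bases after them, the gap in capitals. Bait continuation is the class name for any word of the aligned bait on either strand, before or beyond the point where the bait alignment ended. Bait side means a word of preys within 10 kb of the bait, and Sα side a word of preys in the 20 kb Sα window. The 4 classes held 197, 349, 231 and 6708 members. Of these, 61.4%, 24.6%, 45.0% and 82.9% were also near to the adapter words, by the limits set out after the gap lengths.
bait continuation, PAXX-/- clone 2: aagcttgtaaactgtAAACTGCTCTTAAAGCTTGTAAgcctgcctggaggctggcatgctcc
bait continuation, Ligase4-/- clone 1: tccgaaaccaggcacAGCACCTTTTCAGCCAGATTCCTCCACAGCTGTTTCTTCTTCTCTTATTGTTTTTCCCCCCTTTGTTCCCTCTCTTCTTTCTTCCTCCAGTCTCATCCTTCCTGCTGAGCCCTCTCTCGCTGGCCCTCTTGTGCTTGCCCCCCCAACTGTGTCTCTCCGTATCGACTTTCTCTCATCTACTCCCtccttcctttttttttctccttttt
bait side, PAXX-/- clone 1: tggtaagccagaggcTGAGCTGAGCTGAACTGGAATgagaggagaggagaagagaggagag
bait side, XLF-/- clone 1: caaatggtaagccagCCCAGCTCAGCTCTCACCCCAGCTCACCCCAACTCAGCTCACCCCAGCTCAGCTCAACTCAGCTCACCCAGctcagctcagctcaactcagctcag
Sα side, Ligase4-/- clone 2: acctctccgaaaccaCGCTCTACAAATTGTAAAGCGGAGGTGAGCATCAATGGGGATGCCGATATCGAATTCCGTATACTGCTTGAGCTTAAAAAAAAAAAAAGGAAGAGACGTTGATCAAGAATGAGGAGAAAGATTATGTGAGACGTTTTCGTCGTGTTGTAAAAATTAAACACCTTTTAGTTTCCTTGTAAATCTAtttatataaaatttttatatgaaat
Sα side, XLF-/-PAXX-/- clone 2: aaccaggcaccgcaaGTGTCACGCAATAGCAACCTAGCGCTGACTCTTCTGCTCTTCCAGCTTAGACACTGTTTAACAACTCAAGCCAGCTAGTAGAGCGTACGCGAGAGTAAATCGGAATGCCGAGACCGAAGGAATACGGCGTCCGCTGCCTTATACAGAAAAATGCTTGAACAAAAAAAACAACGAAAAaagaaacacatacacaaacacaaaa
no Igh match, PAXX-/- clone 1: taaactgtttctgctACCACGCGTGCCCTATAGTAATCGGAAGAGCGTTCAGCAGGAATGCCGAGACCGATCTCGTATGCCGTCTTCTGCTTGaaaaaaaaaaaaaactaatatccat
no Igh match, XLF-/- clone 2: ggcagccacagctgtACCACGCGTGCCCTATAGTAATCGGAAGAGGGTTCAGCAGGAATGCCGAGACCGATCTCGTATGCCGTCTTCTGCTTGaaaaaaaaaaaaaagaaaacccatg
In mm9 the preys of these reads aligned, in this order, at chr5:129727399-129727468, chr10:56043217-56043241, chr10:17330068-17330149, chr19:35350939-35350987, chr11:26784406-26784430, chr2:63389166-63389192, chr14:30381023-30381047 and chr5:87139890-87139914. Both gaps of the largest class opened with the whole 19-base word and came within 2 edits of the 51-base word, and the prey that followed opened with a run of A. The bait-side gaps were covered by switch words over 47.6% and 70.4% of their bases. In the same order the preys were 70, 25, 82, 49, 25, 27, 25 and 25 bases long. The Sα-side gaps lay 14 and 17 edits from the 51-base word and the second bait-continuation gap 19, so that these 3 met the limit of 19 edits used for adapter-like gaps although each shared a 16-base word with Igh. The first bait-continuation gap and both bait-side gaps met neither limit. That bait-continuation gap repeats bait bases from before its own bait end, so it does not continue the bait.

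Gap length was concentrated in a narrow range. The shortest gap was 21 bases and the longest 189, the median was 81, and the middle 50% lay between 73 and 99 bases. The most frequent length was 80 bases, in 332 joins. Gaps of 71 to 90 bases were 3472 of the 7485 (46.4%), and gaps of 21 to 40 bases were 598 (7.99%). The latter fell from 253 at 21 to 25 bases to 96 at 36 to 40, and their lower edge was set by the rule. At the limit itself, gaps of 19 and 20 bases were found in 118 and 104 joins and gaps of 21 and 22 bases in 57 and 51. Median prey lengths in these 4 sets were 119, 138, 113 and 111 bases. Adapter-like gaps, which came near to the words shown above, were 4, 0, 0 and 3 of them. Joins on both sides of the limit thus had long preys. Gaps this short cannot come within 19 edits of the 51-base word, because its missing bases count as edits. Only the 19-base word could be met, so the low counts of adapter-like gaps were largely fixed by length.

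**Figure D1:**
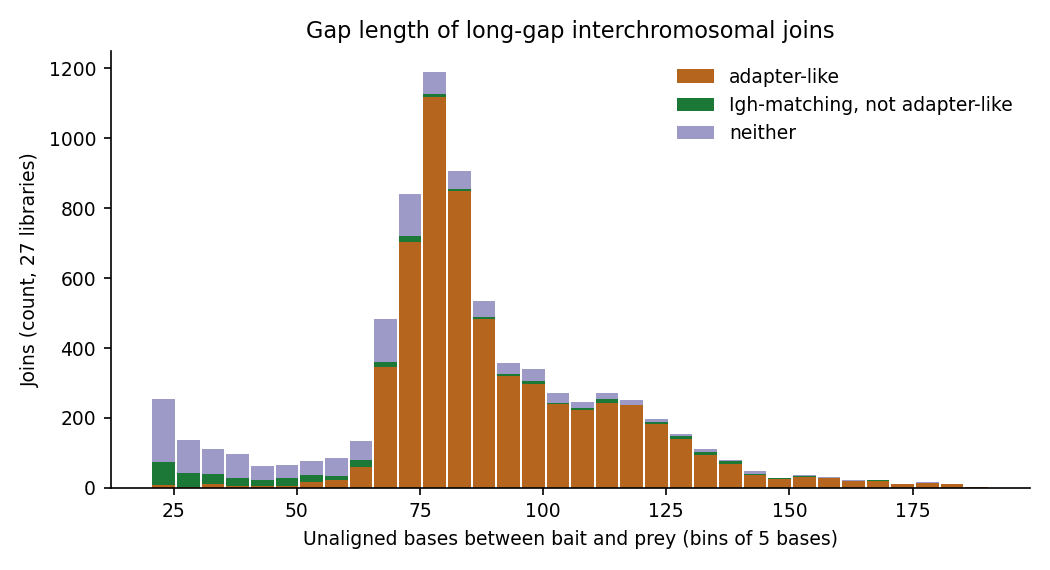
Number of long-gap interchromosomal joins (vertical axis) by gap length in bins of 5 bases (horizontal axis), over all 27 libraries, stacked by what the gap held, where Igh-matching means an Igh word that is not of low complexity. The peak at 71 to 90 bases is mostly adapter-like, and the low group of 21 to 40 bases is mostly not.

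Most gaps were near to the adapter words. A gap was called adapter-like when it came within 19 edits of the 51-base word or within 5 edits of the 19-base word. These were the highest limits at which under 1% of gaps came as near to the same word reversed. The 51-base word was met by 5371 gaps against 65 for its reverse, and the 19-base word by 3710 against 25. Together 5875 members (78.5%) were adapter-like, and 3206 (42.8%) met both words. With limits 2 edits stricter the share was 63.3%, and with the longer word's limit 2 edits looser it was 83.1%. At 20 and 21 edits the reversed longer word was placed in 287 and 883 gaps, so the looser limit does not hold its reverse under 1%. Of the other 1610 members, 28.9% shared any 16-base word with Igh and 1144 (71.1%) shared none. With words of low complexity left out, which have fewer than 3 different bases or a run of 6 of 1 base, 375 (5.01% of members) still held an Igh word and 1235 (16.5%) did not.

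**Figure D2:**
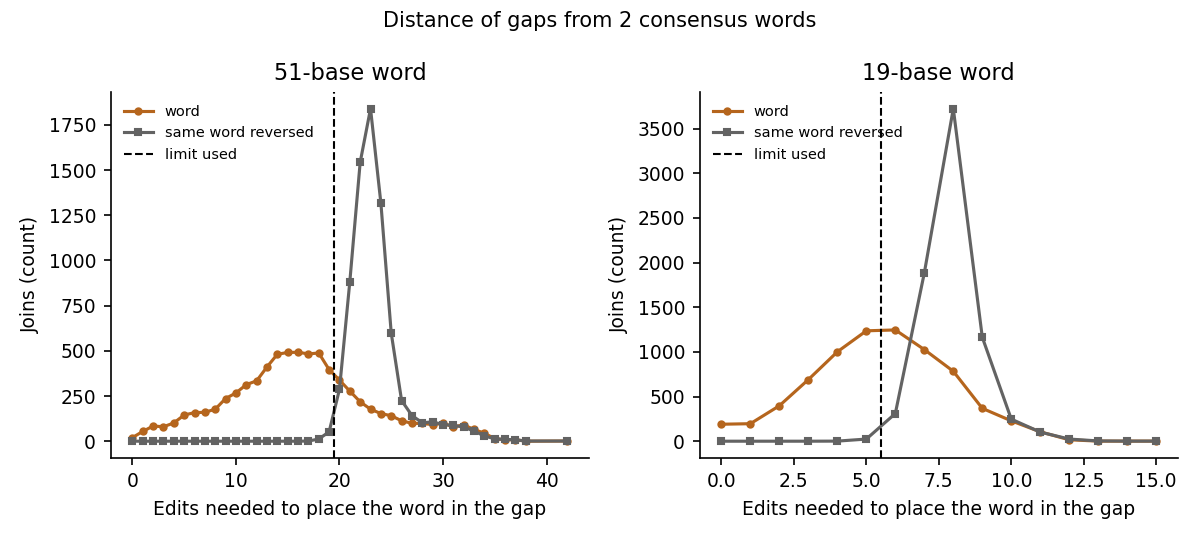
Number of joins (vertical axis) by the edits needed to place the 51-base word (left) or the 19-base word (right) in the gap, for the word and for the same word reversed; the dashed line is the limit used. Left of the lines lie 5371 gaps against 65 and 3710 against 25.

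The words were met with few or many edits. Examples at 0, 12 and 18 edits from the 51-base word, each with a prey of 25 bases, were chosen after their values were seen, as those nearest the median gap length:
0 edits, PAXX-/- clone 1, prey chrX:77376306-77376330: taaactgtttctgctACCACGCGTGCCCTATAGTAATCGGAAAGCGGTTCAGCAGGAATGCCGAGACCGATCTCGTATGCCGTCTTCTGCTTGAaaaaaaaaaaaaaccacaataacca
12 edits, PAXX-/- clone 1, prey chr3:142416019-142416043: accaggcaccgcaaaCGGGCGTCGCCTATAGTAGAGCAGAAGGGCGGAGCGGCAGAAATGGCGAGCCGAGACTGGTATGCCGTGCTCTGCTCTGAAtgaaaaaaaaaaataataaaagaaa
18 edits, PAXX-/- clone 2, prey chrX:43883121-43883145: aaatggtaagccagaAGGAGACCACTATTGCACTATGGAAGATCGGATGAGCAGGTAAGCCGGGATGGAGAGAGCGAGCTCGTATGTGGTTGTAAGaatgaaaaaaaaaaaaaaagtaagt
In each of them the prey alignment began in or beside a run of A.

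Adapter-like members had short preys of low complexity. Their median prey was 26 bases, and 2593 of 5875 (44.1%) aligned over exactly 25 bases. A run of at least 8 identical bases stood in the first 25 prey bases of 83.2% of them, and 67.1% of those bases were A. In the 29947 other interchromosomal joins the median prey was 138 bases, a run was present in 1.29%, and 27.7% of the first 25 bases were A. The 1610 members that were not adapter-like lay between the extremes, with a median prey of 40 bases, runs in 29.1% and 34.5% A. The adapter-like share was lower at longer preys, from 88.5% of 5658 members with preys of 25 to 31 bases to 20.5% of 616 members with preys of 100 bases or more.

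**Figure D3:**
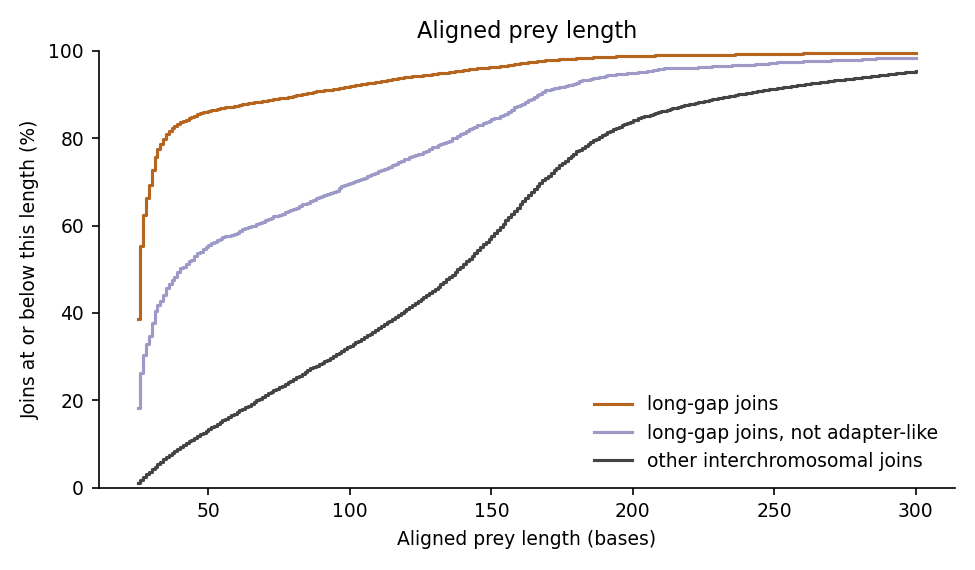
Percent of joins (vertical axis) whose aligned prey is at most the length on the horizontal axis, for all long-gap joins, those that are not adapter-like, and the other interchromosomal joins. The medians are 26, 40 and 138 bases.

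The same contrast held within every clone. As means over the 9 clones, the median prey was 33.6 bases in members and 137 in other interchromosomal joins, shorter in 9 of 9 clones (exact sign-flip permutation test, two-sided, p = 0.00391, the smallest it can give, adjusted p = 0.00547 over 7 tests). A gap and a prey share the bases of 1 read, so a longer gap leaves less prey, and the rule counts the gap up to the prey start. Tests of prey length are thus tied to the rule. Runs of 8 stood in 64.2% against 1.37% of preys, and A made up 56.4% against 27.8% of the first 25 bases (each p = 0.00391, adjusted p = 0.00664 over 17 tests added after seeing the data, exact sign-flip permutation, 9 of 9 clones). The bait alignment ended at read base 71.7 on average in members and at 62.5 in the others, later in 9 of 9 clones (p = 0.00391, adjusted p = 0.00547, exact sign-flip permutation). The rule counts the gap from this base, so tests of the bait end are tied to the rule as well. Without the adapter-like gaps the difference in bait end was 0.439 bases (adjusted p = 0.840, exact sign-flip permutation), while median preys were 51.4 against 137 bases (adjusted p = 0.00664 over the 17 added tests, same permutation test, 9 of 9 clones).

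The deposited read-length field was blank for 6916 members (92.4%) and for 3.55% of the other interchromosomal joins. Sequences of members with a blank field were at most 251 bases long, and in 95.1% of them the prey alignment ran to the last base. Of the 569 members with a recorded length none did. Adapter-like gaps made up 84.2% of members with a blank field and 9.67% of those with a recorded length. What a blank field records is not given in the sources used here.

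Joins inside Igh gave a comparison from the same libraries. In the Sα window (chr12:114489501-114509500, mm9), where the switch to IgA joins, 2.25% of joins had a gap over 20 bases as the mean over clones, against 19.5% of interchromosomal joins, and the interchromosomal share was higher in 9 of 9 clones (exact sign-flip permutation, p = 0.00391, adjusted p = 0.00547). Adapter-like gaps were 11.9% of the Sα long gaps against 73.4% of the interchromosomal ones (p = 0.00391, adjusted p = 0.00664, exact sign-flip permutation, 9 of 9 clones). The 51-base word and both edit limits came from the interchromosomal gaps themselves. Median gaps were 41 bases in Sα and 81 in the interchromosomal set. This test therefore cannot measure a difference in adapter content. After leaving out adapter-like gaps by the same words on both sides, the long-gap shares were 1.96% in Sα and 5.39% in interchromosomal joins (exact sign-flip permutation, adjusted p = 0.00664 over the 17 added tests). Among reads with a recorded length the difference was 0.648 points and was not called (exact sign-flip permutation, adjusted p = 0.185).

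The long-gap share differed widely between libraries of a clone. In WT the 3 libraries gave 28.0%, 23.3% and 21.2%, a mean of 24.1% ± 3.47 (SD, n = 3 libraries). PAXX-/- clone 1 gave 31.5%, 17.1% and 12.8%, and clone 2 gave 15.1%, 20.2% and 16.5%. XLF-/- clone 1 gave 13.05%, 27.4% and 19.03%, and clone 2 gave 31.2%, 12.9% and 12.5%. One library of each of PAXX-/- clone 1 and XLF-/- clone 2 thus stood at over 30%, above every WT library, while their other libraries lay below the WT range. XLF-/-PAXX-/- clone 1 gave 14.97%, 23.8% and 16.8%, and clone 2 gave 5.36%, 6.95% and 20.3%. Ligase4-/- clone 1 gave 18.03%, 8.48% and 7.41%, and clone 2 gave 22.0%, 49.3% and 31.4%. The Ligase4-/- clones did not overlap, and all other pairs of clones of 1 genotype did. The 3 libraries of Ligase4-/- clone 1 came from 3 runs and those of clone 2 from another, so clone and run cannot be told apart there. Exact 95% binomial intervals were 3.74% to 7.41% for the lowest library and 47.3% to 51.3% for the highest, and cover counting error only.

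Genotypes were not separated by these shares. Genotype means ranged from 14.7% in XLF-/-PAXX-/- to 24.1% in WT (exact permutation over all splits of 9 clones, p = 0.826). Against WT by library and with all members, PAXX-/- differed by -5.29 points, XLF-/- by -4.81, XLF-/-PAXX-/- by -9.44 and Ligase4-/- by -1.37, with adjusted p from 0.408 to 0.917 (exact permutation over 84 splits, Benjamini-Hochberg over 16 tests). The Ligase4-/- difference turned to 0.543 points without WT library 1, to 1.49 and 1.71 without library 2 or 3 of Ligase4-/- clone 1, and to 10.1 without that clone. With preys of at least 50 bases all 4 signs turned, to 2.50, 8.56, 0.276 and 1.39 points in the same order (exact permutation, adjusted p from 0.190 to 0.651). Without adapter-like gaps 3 of the 4 turned, to 0.314 points for PAXX-/-, 2.54 for XLF-/- and 1.61 for Ligase4-/- (exact permutation, adjusted p from 0.517 to 0.893). For these values the adapter-like joins were also taken out of the total of interchromosomal joins. Within the shared runs, XLF-/- and PAXX-/- libraries differed by 0.480 points (exact permutation stratified by run, p = 0.910), and that difference ran from -1.59 to 2.96 points when 1 library or clone at a time was left out.

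**Figure D4:**
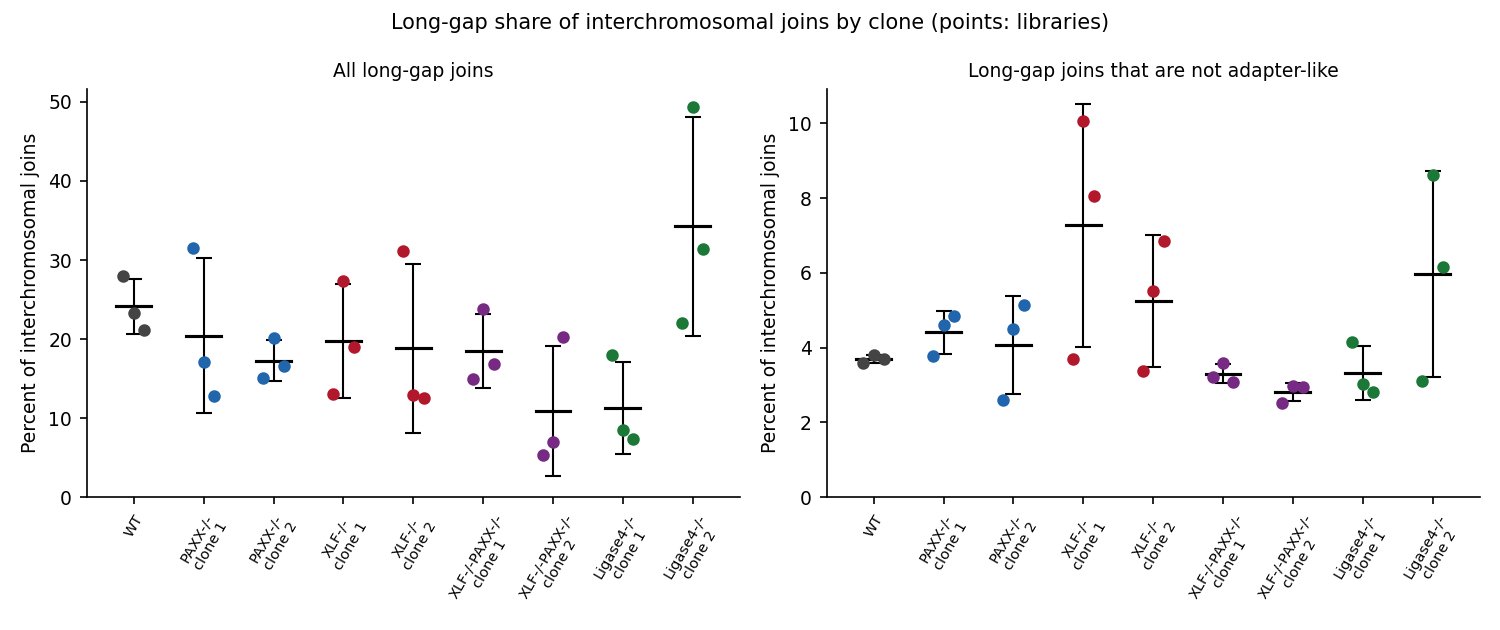
Percent of interchromosomal joins (vertical axes) that had a gap over 20 bases, by clone; left, all such joins, right, those that were not adapter-like. Points are libraries, bars the mean and SD of 3 libraries. The left panel runs from 5.36% to 49.3%, the right one from 2.52% to 10.1%.

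The part of the share that was not adapter-like was lower and spanned fewer points in each clone. As a percent of all interchromosomal joins it was 3.59% to 3.81% in WT, 3.77% to 4.85% in PAXX-/- clone 1 and 2.59% to 5.13% in clone 2, 3.70% to 10.1% in XLF-/- clone 1 and 3.36% to 6.86% in clone 2, 3.09% to 3.58% and 2.52% to 2.97% in the double-mutant clones, and 2.82% to 4.16% and 3.12% to 8.62% in the Ligase4-/- clones. Genotypes did not differ in it by the test used (exact permutation, p = 0.272, adjusted p = 0.330 over the 17 added tests). The adapter-like share of members ran from 45.3% in 1 library of XLF-/- clone 2 to 89.2% in another library of that clone.

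XLF-/- libraries stood apart in 1 of the runs they shared with PAXX-/-. In that run, 4 XLF-/- libraries had median preys of 74, 76, 56.5 and 99 bases among their members, and the 4 PAXX-/- libraries all had 26. In the other shared run, 2 XLF-/- libraries had 26.5 and 26 and both PAXX-/- libraries 26. With adapter-like gaps left out, the median gap was 66.9 ± 10.7 (SD, n = 4) in XLF-/- against 47.5 ± 4.06 (n = 4) in the former run, and 59.2 ± 11.7 against 42.0 ± 11.3 (n = 2 each) in the latter. No test of these gap lengths is given, since the rule limited gap length. The share of these gaps with any Igh word was 26.7% ± 3.02 in XLF-/- against 44.4% ± 4.87 (n = 4 each) in the former run and 29.7% ± 17.1 against 38.2% ± 8.18 (n = 2 each) in the latter. The difference of -14.6 points was called (exact stratified permutation, p = 0.0143, adjusted p = 0.0286 over 4 measures). In the former run the 4 libraries of each genotype were libraries 2 and 3 of its 2 clones. The permutation shuffled libraries within runs regardless of clone, so this call cannot separate genotype from differences among so few clones. The same limit holds for every other test within runs. The call was lost without library 2 or 3 of PAXX-/- clone 1 or library 3 of PAXX-/- clone 2 (adjusted p = 0.0571 in each), and without PAXX-/- clone 1, PAXX-/- clone 2 or XLF-/- clone 2 (adjusted p = 0.207, 0.0889 and 0.148), by the same exact permutation. The long-gap share was 2.22 points higher and was not called (exact stratified permutation, p = 0.0381, adjusted p = 0.0508). It was called without library 1 of PAXX-/- clone 1, library 1 of XLF-/- clone 1 or library 2 of XLF-/- clone 2 (adjusted p = 0.00952, 0.0381 and 0.0286, same permutation). These comparisons without adapter-like gaps were added after seeing the data.

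With preys of at least 50 bases alone, XLF-/- differed from PAXX-/- within runs by 6.06 points in the long-gap share and -16.4 points in the share of gaps with any Igh word (exact stratified permutation, adjusted p = 0.0190 in each). The call of the long-gap share was lost without library 2 or 3 of either PAXX-/- clone (adjusted p = 0.0571 in each, same permutation) and without any 1 of the 4 clones (adjusted p from 0.0889 to 0.119). The call of the Igh share was lost without PAXX-/- clone 1, XLF-/- clone 1 or XLF-/- clone 2 (adjusted p = 0.0889, 0.0889 and 0.119, same permutation). With all members the long-gap share, the pentamer coverage and the Igh share were not called within runs (exact stratified permutation, adjusted p = 0.929 in each), and in the former run the adapter-like share of members was 45.3% to 63.3% in XLF-/- and 61.9% to 77.7% in PAXX-/- libraries. The part of these values in the differences was not tested.

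Among reads with a recorded length, the long-gap share was 0.983% ± 0.317 in WT (SD, n = 3 libraries), 2.48% ± 0.680 for PAXX-/- clone 1 and 2.16% ± 0.878 for clone 2, and 4.07% ± 2.06 for XLF-/- clone 1 and 2.91% ± 1.58 for clone 2. It was 1.28% ± 0.372 and 1.17% ± 0.263 in the double-mutant clones and 1.75% ± 0.389 and 1.66% ± 0.875 in the Ligase4-/- clones. These 9 clone means differed between genotypes (exact permutation over all splits, p = 0.0116, adjusted p = 0.0466 over 4 measures), with both XLF-/- clones highest. This set of reads was added after seeing the data. The call was lost without any 1 of 17 of the 27 libraries or 6 of the 9 clones (exact permutation, adjusted p from 0.0508 to 0.457). It was kept without library 1 or 3 of WT, library 1 of PAXX-/- clone 2, library 2 of XLF-/- clone 1, library 1 or 2 of XLF-/- clone 2, library 1 of either double-mutant clone or library 1 or 3 of Ligase4-/- clone 1, and without the clones WT, XLF-/- clone 1 or XLF-/- clone 2. Without library 3 of XLF-/- clone 2, at 4.73%, that clone's mean was 2.00%, below both PAXX-/- clones, and the adjusted p was 0.457.

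Adapter-like gaps were also unevenly spread among the members with a recorded length. They were 0 in the 3 WT libraries and from 0% to 51.9% of members in the XLF-/- libraries. The highest share was in library 2 of XLF-/- clone 1, where 6.19% of joins had a long gap and 2.98% had one that was not adapter-like. With adapter-like gaps left out as well, XLF-/- clones 1 and 2 had long-gap shares of 2.81% ± 0.654 and 2.42% ± 1.401 (SD, n = 3 libraries). Those of PAXX-/- clones 1 and 2 were 2.31% ± 0.530 and 1.98% ± 0.834, and WT, which had no such gaps, stayed at 0.983% ± 0.317 (n = 3 each). Genotypes differed in it too (exact permutation, p = 0.00635, adjusted p = 0.0254), and this call was also lost without library 3 of XLF-/- clone 2 (exact permutation, adjusted p = 0.440). It was lost as well without library 1 of PAXX-/- clone 1, library 3 of PAXX-/- clone 2, library 1 of XLF-/- clone 1 or library 2 of Ligase4-/- clone 2 (adjusted p from 0.0508 to 0.207, same permutation), and without PAXX-/- clone 2, XLF-/- clone 1 or any 1 clone of XLF-/-PAXX-/- or Ligase4-/- (adjusted p from 0.0762 to 0.114). Apart from PAXX-/- and XLF-/-, genotype and sequencing run cannot be told apart. Between those genotypes within runs the difference with all recorded reads was 1.17 points and was not called (exact stratified permutation, adjusted p = 0.0889). It was called without library 2 of XLF-/- clone 2 (adjusted p = 0.0190, same permutation). The shares rest on 15 WT members and on 34 to 130 in the mutant clones.

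Gap length, with all members, lay in a narrow range in all clones. Library medians were 82, 83 and 82 bases in WT and between 72.5 and 86 elsewhere, and 25 of 27 lay at 78 bases or above. Genotype means ran from 78.2 bases in XLF-/-PAXX-/- to 82.3 in WT.

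Switch pentamers covered a small share of the gap bases. The words GAGCT, its variant GGGGT and the mixed form GGGCT were counted on both strands, with overlapping hits counted once per base. The prey's first bases, up to the length of the gap, served as the comparison, or the whole prey where it was shorter. The median prey had 26 bases and the median gap 81, so in most members the whole prey was compared. Coverage of the gaps in the 3 libraries was 2.92%, 2.72% and 2.89% in WT, 2.98%, 4.35% and 5.92% in PAXX-/- clone 1 and 2.55%, 3.81% and 3.91% in clone 2. The XLF-/- clones gave 5.32%, 3.04% and 4.76%, and 2.37%, 4.22% and 2.74%. The WT libraries lay together near the low end, and libraries of the PAXX-/- and XLF-/- clones fell on both sides of them. The double-mutant clones gave 3.13%, 2.24% and 2.74%, and 6.87%, 3.52% and 2.63%, and the Ligase4-/- clones gave 3.30%, 4.02% and 3.92%, and 2.36%, 2.59% and 2.48%. Genotype means ran from 2.85% in WT to 3.92% in PAXX-/- and did not differ by the test used (exact permutation, p = 0.820). This order turned with preys of at least 50 bases, where WT, on 22 members, was highest at 15.3% and the mutants lay 7.03 to 10.9 points below it (exact permutation over 84 splits, adjusted p = 0.190 in each). WT was also highest among reads with a recorded length, at 22.1% on 15 members. Without adapter-like gaps Ligase4-/- was lowest at 6.82%, with WT at 7.37%.

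Coverage was higher in gaps than in preys. The clone means averaged 3.49% in gaps and 2.62% in preys, higher in the gap in 9 of 9 clones (exact sign-flip permutation, p = 0.00391, adjusted p = 0.00547). Adapter-like gaps had 2.23% and their preys 0.627%. Of the first 25 bases of those preys 67.1% were A, which leaves little room for the pentamers, and a short prey has fewer positions per base for them. The test of gaps against preys therefore cannot separate length and base content from switch content. With adapter-like gaps left out, coverage was 8.48% in gaps and 7.20% in preys, higher in the gap in 7 of 9 clones, and the difference was no longer called (exact sign-flip permutation, p = 0.0781, adjusted p = 0.111). In the Sα long gaps coverage was 15.9%, above the interchromosomal gaps in 9 of 9 clones (exact sign-flip permutation, p = 0.00391, adjusted p = 0.00664). At least 1 pentamer was present in 33.2% of gaps, with GAGCT in 13.4%, the word GGGGT in 14.3% and the word GGGCT in 12.5%.

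**Figure D5:**
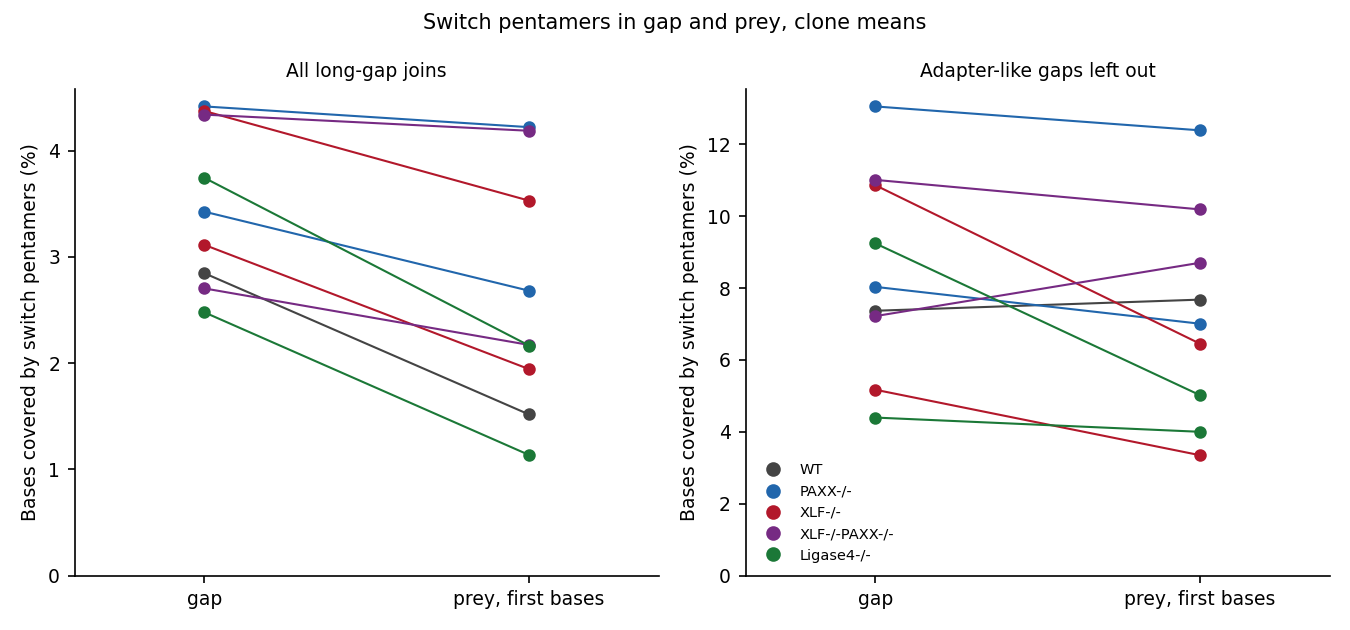
Percent of bases covered by switch pentamers (vertical axes) in the gap and in the first bases of the prey, as means of 3 libraries, 1 line per clone; left, all long-gap joins, right, with adapter-like gaps left out. All 9 lines fall from gap to prey on the left and 7 of 9 on the right.

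A word shared with Igh was found in 777 gaps (10.4%) and 901 preys (12.04%). The lists held 53343 bait words, 388311 bait-window words and 711410 Sα words. These outnumber the bases of each stretch, so they include variants found in reads. The share that random gaps would match was not computed, and a match need not be Igh DNA. Across clones the gap share was 1.18 points below the prey share (exact sign-flip permutation, p = 0.141, adjusted p = 0.164). This order turned when words of low complexity were left out, which was added after seeing the data. Then 10.1% of gaps and 4.30% of preys matched as clone means, higher in the gap in 9 of 9 clones (exact sign-flip permutation, p = 0.00391, adjusted p = 0.00664). The median gap had 81 bases and the median prey 26, so a gap offered more words that could match. This test cannot separate length from Igh content. Of the 631 gaps that still matched, 196 (31.1%) held a bait word, 221 (35.0%) held words of both the bait window and Sα, and 256 (40.6%) were also adapter-like. With all words the difference turned to 1.01 points for words of 20 bases and reached -13.3 points for words of 14, and without XLF-/- clone 1 it was -1.75 points and called (exact sign-flip permutation, adjusted p = 0.0365, 0.00456 and 0.0182). By genotype, the share of gaps with any Igh word ran from 9.40% in WT to 14.1% in PAXX-/- (exact permutation, p = 0.561). With preys of at least 50 bases XLF-/- was lowest at 15.8% and WT stood at 28.1%, and without adapter-like gaps Ligase4-/- was lowest at 22.2% and WT stood at 28.9%. PAXX-/- was highest in both, at 32.2% and 42.3%.

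Stretches near to the next bait bases were also found beyond the point where the bait alignment ended. The next 20 bait bases were placed within 6 edits in the first 30 gap bases of 580 of 7454 members (7.78%), against 59 (0.792%) for the same bases reversed. The share was 7.29% in adapter-like gaps, 13.7% in other gaps with an Igh word not of low complexity and 8.34% in gaps with neither.

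Some gaps were rich in switch words. In 247 members (3.30%) pentamers covered at least 20% of the gap, and 85 of these were covered over at least 50%. The shortest gaps and preys reach 20% with 1 pentamer. The gaps of the 247 had a lower quartile of 25.5 bases and a median of 43. The share that gap length and base content alone would give was not computed. The 247 came from 27 of 27 libraries and 19 chromosomes, 194 (78.5%) held an Igh word of normal complexity, and 17 (6.88%) were adapter-like. Of the 247, 160 had more coverage from the words as written and 80 from their reverse complements, as read from the bait. WT had 12 such members, the PAXX-/- clones 34 and 23, the XLF-/- clones 32 and 22, the double mutant 25 and 16, and Ligase4-/- 51 and 32, which are 0.489% to 1.15% of interchromosomal joins. As clone means, 4.57% of members had such a gap and 3.45% such a prey (exact sign-flip permutation, p = 0.00781, adjusted p = 0.0121, 8 of 9 clones), and genotypes were not separated (exact permutation, p = 0.858).

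In 115 of the 247 the prey itself was covered to the same degree, so that by these words Igh and a repeat on another chromosome cannot be told apart. The other 132 joined a switch-type gap to a prey under the limit. A prey under the limit can still be a repeat of other short words, so the same doubt remains for them. Of the 132, 60 also had a prey of at least 50 bases, a recorded read length, no run of 8 in the prey start and no adapter-like gap. They were 0.802% of the members, came from 9 clones, 21 libraries and 18 chromosomes, and lay in 57 different 10 kb windows. Their median gap was 31 bases and their median prey 147. Sense words prevailed in 48 of 60, a bait-window word stood in 48 and an Sα word in 49. WT had 2 of them, the PAXX-/- clones 6 and 5, the XLF-/- clones 8 and 5, the double mutant 5 and 6, and Ligase4-/- 14 and 9. As shares of interchromosomal joins these were 0.0975% to 0.287%, and the exact 95% binomial interval for WT, 0.0118% to 0.352%, held the share of every other clone. Of these 60, the 4 with the most covered bases in different clones are shown, chosen after their values were seen, followed by 1 in which the prey was also covered:
switch gap, Ligase4-/- clone 1, prey chr11:100439840-100440034: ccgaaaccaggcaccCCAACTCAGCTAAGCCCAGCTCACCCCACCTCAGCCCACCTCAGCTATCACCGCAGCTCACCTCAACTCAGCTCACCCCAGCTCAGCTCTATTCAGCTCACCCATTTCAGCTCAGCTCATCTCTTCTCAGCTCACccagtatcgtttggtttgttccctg
switch gap, XLF-/- clone 1, prey chr5:104760163-104760497: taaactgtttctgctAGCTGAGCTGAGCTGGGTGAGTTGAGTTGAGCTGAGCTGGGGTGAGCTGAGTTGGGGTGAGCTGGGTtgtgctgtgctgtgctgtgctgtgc
switch gap, Ligase4-/- clone 2, prey chr13:74666727-74667874: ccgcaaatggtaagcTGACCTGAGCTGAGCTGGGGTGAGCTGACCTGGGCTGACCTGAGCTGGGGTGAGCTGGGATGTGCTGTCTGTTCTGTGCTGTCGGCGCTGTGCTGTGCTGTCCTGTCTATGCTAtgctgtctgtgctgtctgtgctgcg
switch gap, XLF-/- clone 2, prey chr8:97304728-97305045: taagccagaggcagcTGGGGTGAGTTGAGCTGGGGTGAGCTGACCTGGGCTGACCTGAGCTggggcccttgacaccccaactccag
switch gap and prey, PAXX-/- clone 1, prey chr8:25469631-25469753: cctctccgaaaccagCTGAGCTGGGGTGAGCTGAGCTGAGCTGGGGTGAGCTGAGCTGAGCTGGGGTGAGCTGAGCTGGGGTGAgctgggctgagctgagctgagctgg
Their gaps were covered over 48.1%, 59.7%, 35.1%, 65.2% and 94.2% of 135, 67, 114, 46 and 69 bases. The first holds the reverse complements only, and the other 4 the words as written. The preys shown for XLF-/- clone 1 and Ligase4-/- clone 2 open with short tandem repeats that these words do not cover.

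Preys of the members were spread over the genome. All 20 other chromosomes held members, from 7 on the Y chromosome to 564 on chromosome 2. The X chromosome took 5.54% of members and 2.41% of the other interchromosomal joins, a gap of 3.13 points, and chromosome 11 took 5.69% against 7.93%, which were not tested. For the members that were not adapter-like the X share was 4.53%. The plus strand held 51.1% of members and 49.4% of the others as clone means (exact sign-flip permutation, p = 0.320). Of the 7485, 2 matched another join of their library in prey junction, strand and bait end.

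Members fell into 6342 windows of 10 kb, and 5803 of these (91.5%) held 1 member. Members of at least 2 clones met in 462 windows (7.28%) and of at least 3 clones in 134 (2.11%). The window of the prey held an interchromosomal join without a long gap from another clone for 12.97% of members, against 22.8% of the other joins, lower in 9 of 9 clones (exact sign-flip permutation, p = 0.00391, adjusted p = 0.00547). Without the adapter-like gaps the shares were 19.8% and 22.8% and the difference was not called (exact sign-flip permutation, p = 0.102, adjusted p = 0.133).

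The windows shared by most clones held preys with runs of 1 base. The most shared was chr13:22250000-22259999 (mm9) with 34 members of 9 clones at 2 junction positions, 33 of them at position 22254155. It was followed by chr19:47030000-47039999 with 25 members and chr5:28500000-28509999 with 17, both from 9 clones. From 8 clones came chr6:24140000-24149999 with 23 members, chr14:86130000-86139999 with 20 and chr9:9390000-9399999 with 16. From 7 clones came chr1:78080000-78089999 with 24 and chr15:4780000-4789999 with 11, and from 6 clones chr5:68960000-68969999 with 13 and chr5:57080000-57089999 with 12. Every member in these 10 windows had a run of at least 8 identical bases at the prey start, and median preys were 25 to 31 bases. None of the 10 held an interchromosomal join without a long gap in any clone. Genes in these windows were not analysed here.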

How the data were processed

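Joins were measured by LAM-HTGTS from an Igh Iμ bait in 27 libraries of CH12F3 cells, with Bowtie2 and mm9 named in the submitters' processing notes while filters were not given in the sources used here. Each clone has 1 deposited table of its 3 libraries, with 1 line per join that gives alignment positions, strand and read sequence (base positions, lengths and letters, with no normalized values). The table gave the clone, as the labels name it for the 3 samples. Libraries were numbered 1 to 3 in name order, since the replicate numbers of the labels are not in the names. Sequencing runs were read from read names.

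The gap is the read sequence between the last bait base and the first prey base. Shares, medians and coverage were computed per library and averaged per clone. In the sets without adapter-like gaps, those joins were taken out of the totals as well, except where a percent of all interchromosomal joins is stated. No genome was used, so Igh words of 16 bases came from the aligned bait bases and from preys within 10 kb of the bait or in the 20 kb Sα window. Words were placed with edlib 1.3.9.post1 (edit distance, Python 3.11.15, numpy 2.4.6, pandas 2.3.3, scipy 1.17.1). Exact two-sided permutation tests were run over 9 clones (945 genotype splits or 512 sign patterns), over libraries against WT (84 splits, smallest p 0.0119) and within runs (420 splits, smallest p 0.00476), with Benjamini-Hochberg adjustment within each family of 4, 7, 16 and 4 tests and a threshold of 0.05. They were tested on simulated data. The tests against WT and within runs shuffled libraries regardless of clone.

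Members, lists and rules were chosen with earlier results of these data known. The adapter words, the sets without adapter-like gaps, without blank read lengths or without both, the leaving out of libraries within these sets, the low-complexity rule, the switch-rich limit and 17 further tests were added after seeing the data. Gap length counts in the families of 4 and 16 tests, but its tests are not given, since the rule limited it. Bait end and prey length, whose tests are given, are tied to the rule too. Regions named were the 10 windows of 10 kb with members of most clones, then most members. Alternatives changed the gap minimum, prey minimum, words, windows, collapsing, pooling and the libraries or clones used. Depth was 3610 to 14524 joins per library, and intervals cover counting error only.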

Additional observations from a re-analysis of the deposited data

Results flagged for a closer look

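In 16 sets of 6 libraries of 1 genotype, 2 had a library far from the other 5, and chance gives this in about 1 of 20 sets. Switch-pentamer coverage of gaps was 6.87% in library 1 of XLF-/-PAXX-/- clone 2, the next highest of the 6 double-mutant libraries being 3.52%. That library held 34 members, the fewest of all 27. The share of gaps with an Igh match was 5.25% in library 1 of XLF-/- clone 2, the next lowest XLF-/- library being 14.4%. That library held 686 members, and 89.2% of them were adapter-like.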

How the results depend on the processing

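No paired analysis was possible because the tables carry library names without the replicate numbers of the labels. Of 224 alternative values that left out no library or clone, 176 kept direction and side of the threshold, 31 reversed, 10 became called and 7 lost the call, gap length included. Of 1100 values with a library or clone left out, 1072 kept both, 27 reversed and 1 became called. The causes were not tested.

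With gaps over 30 bases, the median gap of XLF-/- against WT turned to 0.833 bases and the Igh match of XLF-/- against PAXX-/- within runs to 0.509 points. With the 5 windows kept in, the long-gap share of XLF-/- against PAXX-/- was -0.337 points. With AGCT alone, pentamer coverage of XLF-/- against PAXX-/- was 0.286 points. The Igh match of XLF-/- against PAXX-/- was 2.18 points with words of 14 bases and 0.0728 without words of low complexity, and gap minus prey was -13.3 with words of 14, 1.01 with words of 20 and 5.80 without words of low complexity.

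With preys of at least 50 bases, long-gap shares against WT were 2.50 points for PAXX-/-, 8.56 for XLF-/-, 0.276 for XLF-/-PAXX-/- and 1.39 for Ligase4-/-, and 6.06 for XLF-/- against PAXX-/-. Median gaps were 5.50 and 23.2 bases above WT for PAXX-/- and XLF-/-, and 17.7 for XLF-/- against PAXX-/-. Pentamer coverage against WT was -7.95, -10.9, -7.03 and -7.56 points for PAXX-/-, XLF-/-, XLF-/-PAXX-/- and Ligase4-/-. Igh match was -12.2 and -5.91 against WT for XLF-/- and Ligase4-/-, and -16.4 for XLF-/- against PAXX-/-.

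Without adapter-like gaps, long-gap shares against WT were 0.314, 2.54 and 1.61 points for PAXX-/-, XLF-/- and Ligase4-/-. The XLF-/- median gap was 2.00 bases above WT and 18.7 above PAXX-/-. Ligase4-/- pentamer coverage was -0.549 against WT. Igh match was -1.16 and -6.69 against WT for XLF-/- and Ligase4-/-, and -14.6 for XLF-/- against PAXX-/-. Gap minus prey was 1.28 for pentamers and 1.96 for Igh match, bait end 0.439 bases and other-clone windows -2.96 points. With recorded read lengths alone, the genotype range of the long-gap share was 2.51 points (1.63 without adapter-like gaps as well), and XLF-/- against PAXX-/- was 16.3 bases for the median gap and -19.4 points for Igh match, a call lost without any 1 of 11 of the 12 libraries (exact stratified permutation, adjusted p up to 0.124). Gap minus prey was 2.48 for pentamers and 8.38 for Igh match, interchromosomal minus Sα 0.648, bait end 0.0806 bases, prey length -18.2, plus strand -4.20 and other-clone windows 1.32 points.

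Leaving out 1 library or clone, Igh match gap minus prey ran from -1.75 to -0.845. XLF-/- against PAXX-/- ran from -1.59 to 2.96 for the long-gap share, -2.13 to 1.82 for Igh match and -0.808 to 0.452 for pentamers. Against WT, Ligase4-/- ran from -12.8 to 10.1 for the long-gap share, -1.66 to 3.52 for Igh match and -0.368 to 0.898 for pentamers, XLF-/- from -1.23 to 0.367 for the median gap, and XLF-/-PAXX-/- from -0.143 to 1.49 for pentamers. Depth limits the smallest sets, such as 15 WT members with a recorded read length.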
